A study of Sus scrofa with 11 samples.

Results

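Heat shock proteins and DNAJ chaperones are the families of proteins that fold newly made proteins, refold damaged ones and pass those that cannot be saved to degradation. Their genes were taken from the joined gene counts as all identifiers whose pig symbol is HSPA, HSPB, HSPD, HSPE or HSPH followed by a number alone or by a number and L, or begins with HSP90 or with DNAJA, DNAJB or DNAJC and a number, with at least 10 counts in 2 or more of the 11 libraries. Of 58 matching symbols, 54 reached that minimum, out of 25880 gene identifiers, of which 14857 carry a symbol. The 4 left out were DNAJB13, DNAJC5B, DNAJC22 and HSPB9. HSPA12A and HSPA12B, whose symbols end in another letter, lie outside the rule. The 54 members comprise 6 cytosolic HSP70 and HSP110 proteins, 2 cytosolic HSP90 proteins, 4 small heat shock proteins, 13 chaperones of the endoplasmic reticulum (ER), 9 of mitochondria and 20 other J proteins, most of them cytosolic or nuclear. The rule used no expression difference, and 53 members were tested, HSPB3 being too low.

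RNA sequencing was carried out on porcine (Sus scrofa) coronary arteries in 5 groups. Stented vessels were kept in a bioreactor without flow (stented static, 2 libraries) or with the higher flow (stented high-flow, 3 libraries). Vessels without a stent were kept in a bioreactor at the higher flow (high-flow, 2 libraries) or at a low flow (low-flow, 2 libraries), and uncultured vessels served as native controls (2 libraries). Strain, sex, age, treatment with any agent, flow rates and culture time are not stated in the sources used here; sample names end in 3d for both stented static libraries and in 7d for stented high-flow replicate 3, and the meaning of these endings is not given. The number 25 stands in the names of both native replicate 2 and stented high-flow replicate 1, and no source says that replicates are separate animals, so the p-values cover just the spread among these libraries, which may be technical. All 4 cultured groups were compared with the same 2 native libraries.

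HSP70 proteins bind exposed hydrophobic stretches of a client protein and release them in a cycle driven by ATP. J proteins, the DNAJ families, deliver clients and start the ATP step, while HSP110 proteins and other nucleotide exchange factors end it. HSP90 receives partly folded clients from HSP70, small heat shock proteins hold unfolded proteins in a form that can be refolded, and the HSP60 and HSP10 chaperonin folds proteins inside mitochondria. Heat and other stresses that unfold cytosolic proteins induce many cytosolic and mitochondrial members through heat shock factor 1, whereas ER members such as the ER HSP70 HSPA5 (BiP) are induced by the unfolded protein response. In arteries, smooth muscle cells carry small heat shock proteins that bind the actin cytoskeleton, and secreting cells depend on ER chaperones to export collagen and other matrix proteins.

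The libraries held 13496636 to 26785124 counts. Expression is given as CPM, counts scaled to 1000000 counts per library after each library's total was multiplied by a scaling factor (TMM, 0.859 to 1.16). The 7 vascular smooth muscle markers MYH11, ACTA2, CNN1, TAGLN, MYL9, SMTN and DES were found in every library. They summed to 453 and 2671 CPM in stented static vessels, 3816 to 5925 CPM in stented high-flow vessels, 1489 and 5345 CPM without a stent at high flow, 7137 and 7429 CPM at low flow, and 30500 and 37040 CPM in native vessels. Of these 7 markers, 6 fell in stented static, 5 in stented high-flow, 5 in high-flow and 1 in low-flow vessels. Proliferation markers (4 matched) rose for 0, 3, 1 and 1 genes in the same order of groups, and macrophage markers (5) rose for 3, 2, 2 and 2 and fell for 0, 1, 1 and 0. In bulk tissue, fewer cells of a type and less RNA per cell cannot be told apart.

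Most chaperone genes stayed below the threshold for a change in culture, and those that passed it went in both directions. In the edgeR quasi-likelihood fit with Benjamini-Hochberg adjustment over 15348 genes, a gene was called changed at an adjusted p under 0.05. In stented static vessels 5 of 53 members (9.43%) were called, 3 higher and 2 lower than native, while 12.7% of all genes were called. In stented high-flow vessels 9 members (17%) were called, 5 higher and 4 lower, against 24.3% of all genes. In high-flow vessels the count was 6 (11.3%), 2 higher and 4 lower, against 14.8% of all genes. In low-flow vessels it was 7 (13.2%), 3 higher and 4 lower, against 12.4% of all genes. The members' shares were thus near or below those of all genes. The median log2 fold change of the tested members was 0.32, 0.46, 0.31 and 0.27 in the groups in the order just given, while the median of all genes was 0.02, 0.06, 0.02 and 0.00 to 2 decimals. In all, 13 members were called in at least 1 of the 4 comparisons and 40 in none. The matching share of all genes was not counted, but stented high-flow vessels alone had 24.3% of them called. The counts depended on single libraries in every comparison, and so did those of all genes. Leaving out stented high-flow replicate 1, 2 or 3 gave 14, 5 and 8 members against native, beside 26.7%, 16.1% and 20.6% of all genes. Leaving out any other library left 1 in a group, and lowered the counts of members and of all genes.

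**Figure D1:**
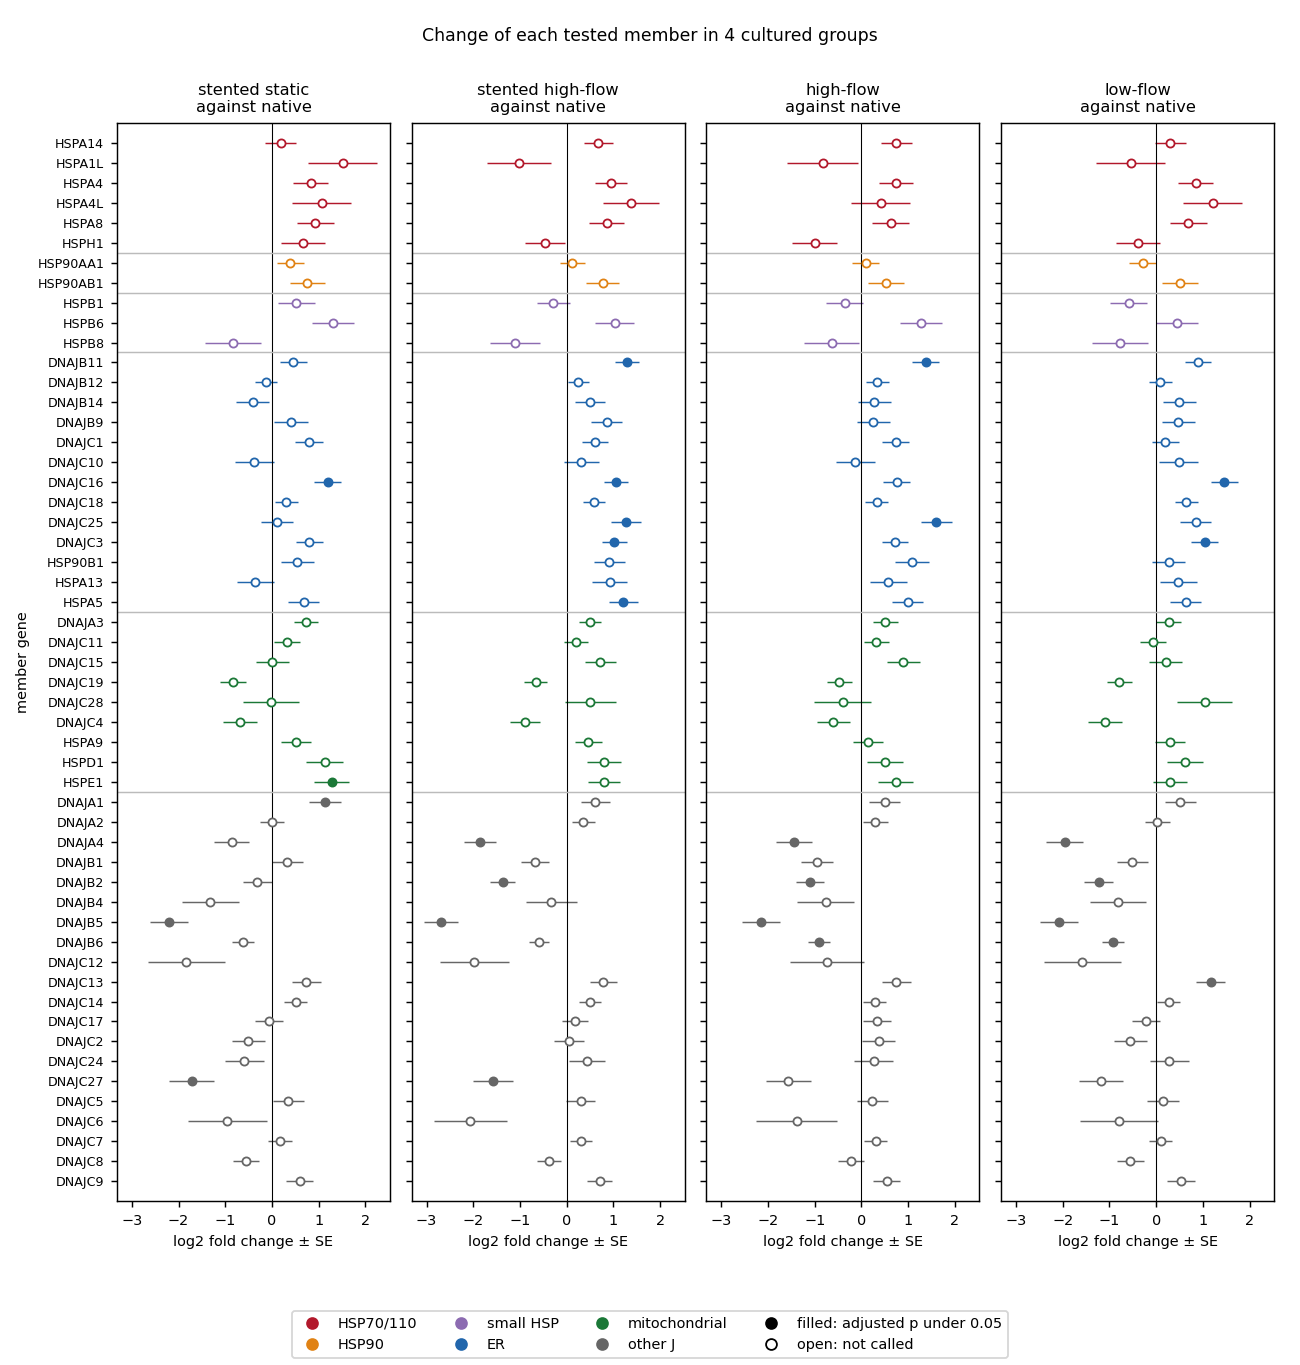
Log2 fold change ± SE (x axis) of the 53 tested members (rows, coloured by class) in each cultured group against native vessels; filled points passed an adjusted p of 0.05. The filled points above 0 are mostly ER members, 5 of 13 in stented high-flow vessels, and those below 0 are other J proteins, led by DNAJB5.

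The ER chaperones were called only upward against native, most often in stented high-flow vessels. There 5 of 13 tested (38.5%) rose, the largest share of the 6 classes in that comparison, while 10.4% of all genes rose. In the other comparisons 1 rose in stented static, 2 in high-flow and 2 in low-flow vessels, where 5.54%, 5.94% and 5.03% of all genes rose. None of the 13 fell in any of the 4 comparisons. Of all genes 7.19% fell in stented static, 13.9% in stented high-flow, 8.86% in high-flow and 7.38% in low-flow vessels. In stented high-flow vessels all 3 libraries lay above both native libraries for 11 of the 13, which held for 25.4% of all genes, and the median log2 fold change of the class was 0.91. Summed over the 13 genes, the class took 0.229%, 0.287% and 0.233% of the unscaled counts in stented high-flow libraries and 0.110% and 0.125% in native ones. As CPM, which are TMM-scaled, the sums were 2216, 3178 and 2424 against 1249 and 1450. Markers of other cell types moved in the same comparison. Of 5 adventitial fibroblast markers 2 rose (PDGFRA and LUM) and 1 fell (PI16), and they summed to 19170 to 48130 CPM in stented high-flow and to 22710 and 28450 CPM in native libraries. Falls were called for 4 of 6 adipocyte markers (29.3 to 93.9 CPM in stented high-flow, against 2716 and 1730 CPM in native libraries), 4 of 4 Schwann cell markers (10.7 to 37.5 CPM, against 717 and 680.2 CPM in native) and 2 of 4 endothelial markers (190.2 to 284 CPM, against 635 and 727 CPM in native). Of these markers LEP alone was at 0, in stented high-flow replicates 1 and 2, and the part of these cells in the ER class was not tested.

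HSPA5, the HSP70 of the ER lumen, lies on chromosome 1 at bases 265930044 to 265934959 (Sscrofa11.1). It stood at 778, 1193 and 978 CPM in stented high-flow vessels, against 434 and 418 CPM in native vessels. It was at 615 and 748 CPM in stented static, 1047 and 649 CPM in high-flow and 746 and 573 CPM in low-flow vessels. Every cultured library was thus above both native ones. HSPA5 rose in stented high-flow vessels by 1.21 ± 0.31 on the log2 scale (SE; adjusted p = 0.0169). The difference from native was 0.68 ± 0.33 in stented static, 0.99 ± 0.33 in high-flow and 0.63 ± 0.33 in low-flow vessels, with adjusted p of 0.195, 0.065 and 0.232, so it was not called there. Leaving out native replicate 1 (adjusted p = 0.116) or 2 (0.111) or stented high-flow replicate 2 (0.0581) ended the call.

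DNAJB11 (ERdj3) is a soluble J protein that binds unfolded chains together with HSPA5; it lies on chromosome 13 at bases 124387921 to 124409967, where its span overlaps TBCCD1. It had 72.2, 79.4 and 99.97 CPM in stented high-flow vessels and 102.0 and 75.5 CPM in high-flow vessels, against 30.1 and 38.4 CPM in native vessels. The stented static libraries, at 41.7 and 52.6 CPM, and the low-flow libraries, at 66.5 and 61.1 CPM, were also above both native libraries but lower than the 5 libraries under the higher flow. Under the higher flow DNAJB11 rose by 1.29 ± 0.27 with a stent (adjusted p = 0.00601) and by 1.37 ± 0.28 without one (adjusted p = 0.0102). It was not called in low-flow (0.90 ± 0.28, adjusted p = 0.0603) or stented static vessels (0.46 ± 0.28, adjusted p = 0.303). Without native replicate 1 the adjusted p was 0.0909 with a stent and 0.109 without one, and without high-flow replicate 1 it was 0.0773 in high-flow vessels.

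DNAJC3 (p58IPK), an ER luminal cochaperone of HSPA5 known also as an inhibitor of the kinase PERK, is on chromosome 11 at bases 65230145 to 65299084, where its span overlaps LOC106507943. It had 46.6, 60.6 and 52.0 CPM in stented high-flow, 57.9 and 49.8 CPM in low-flow and 26.2 and 26.3 CPM in native vessels, with no overlap between culture and native. It rose by 1.02 ± 0.27 in stented high-flow (adjusted p = 0.0187) and by 1.04 ± 0.28 in low-flow vessels (adjusted p = 0.0377). In stented static and high-flow vessels the differences were 0.80 ± 0.28 and 0.72 ± 0.28 (adjusted p = 0.088 and 0.113). Leaving out native replicate 1 (0.13) or 2 (0.107) or stented high-flow replicate 2 (0.0645) ended the stented high-flow call, and the low-flow call without any 1 of its 4 libraries (0.125 to 0.211).

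DNAJC16, a J protein anchored in the ER membrane, is on chromosome 6 at bases 74732130 to 74771404 and passed the test in 3 cultures. It had 22.9 and 30.8 CPM in stented static, 22.2, 25.8 and 25.3 CPM in stented high-flow, 34.0 and 30.7 CPM in low-flow and 11.07 and 12.5 CPM in native vessels. The cultured libraries were all above the native ones. The rise was 1.19 ± 0.28 in stented static (adjusted p = 0.0222), 1.05 ± 0.27 in stented high-flow (0.0157) and 1.46 ± 0.29 in low-flow vessels (0.00984), and the difference in high-flow vessels was 0.75 ± 0.28 (0.0982). Each of these calls was lost on leaving out either native library, with adjusted p of 0.0667 to 0.152. In a fit of stented static and native libraries alone, the adjusted p was 0.0643. The calls were lost as well without stented static replicate 2 (0.0905), stented high-flow replicate 2 (0.0509), low-flow replicate 1 (0.0841) or low-flow replicate 2 (0.0602).

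DNAJC25, a membrane J protein, had 37.8, 29.8 and 20.1 CPM in stented high-flow vessels and 30.4 and 43.4 CPM in high-flow vessels, against 11.9 and 12.4 CPM in native vessels. The stented static libraries, at 11.7 and 14.5 CPM, lay at the native level. The low-flow libraries, at 22.2 and 21.4 CPM, lay above native and within the range of the stented high-flow libraries. Under the higher flow it rose by 1.27 ± 0.32 with a stent (adjusted p = 0.0149) and by 1.60 ± 0.34 without one (0.0111). In low-flow and stented static vessels the differences were 0.84 ± 0.33 and 0.11 ± 0.33 (0.124 and 0.862). The stented high-flow call was lost without native replicate 1 (0.106) or 2 (0.0798), and the high-flow call without native replicate 1 (0.0802), native replicate 2 (0.0665) or high-flow replicate 2 (0.0541).

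The other ER members did not pass the test against native vessels in any culture. HSP90B1 (GRP94), the HSP90 of the ER, had 799, 1274 and 871 CPM in stented high-flow and 1145 and 1069 CPM in high-flow vessels, against 462 and 585 CPM in native vessels. Its differences of 0.91 ± 0.33 and 1.08 ± 0.36 came to adjusted p of 0.0678 and 0.0642, although the libraries did not overlap. It had 561 and 963 CPM in stented static and 728 and 532 CPM in low-flow vessels, which overlapped native. DNAJB9 (ERdj4), a J protein known as a strong target of the unfolded protein response, had 62.8, 62.9 and 42.4 CPM in stented high-flow vessels and 27.9 and 33.9 CPM in native vessels (0.86 ± 0.33, adjusted p = 0.0833). HSPA13, a microsomal HSP70-like protein, had 75.0, 68.6 and 43.8 CPM in stented high-flow vessels and 24.6 and 41.1 CPM in native vessels (0.92 ± 0.38, adjusted p = 0.0983). DNAJB12, DNAJB14, DNAJC1, DNAJC10 and DNAJC18 had log2 differences from native of -0.42 to 0.79 over the 4 comparisons, none of them called.

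**Figure D2:**
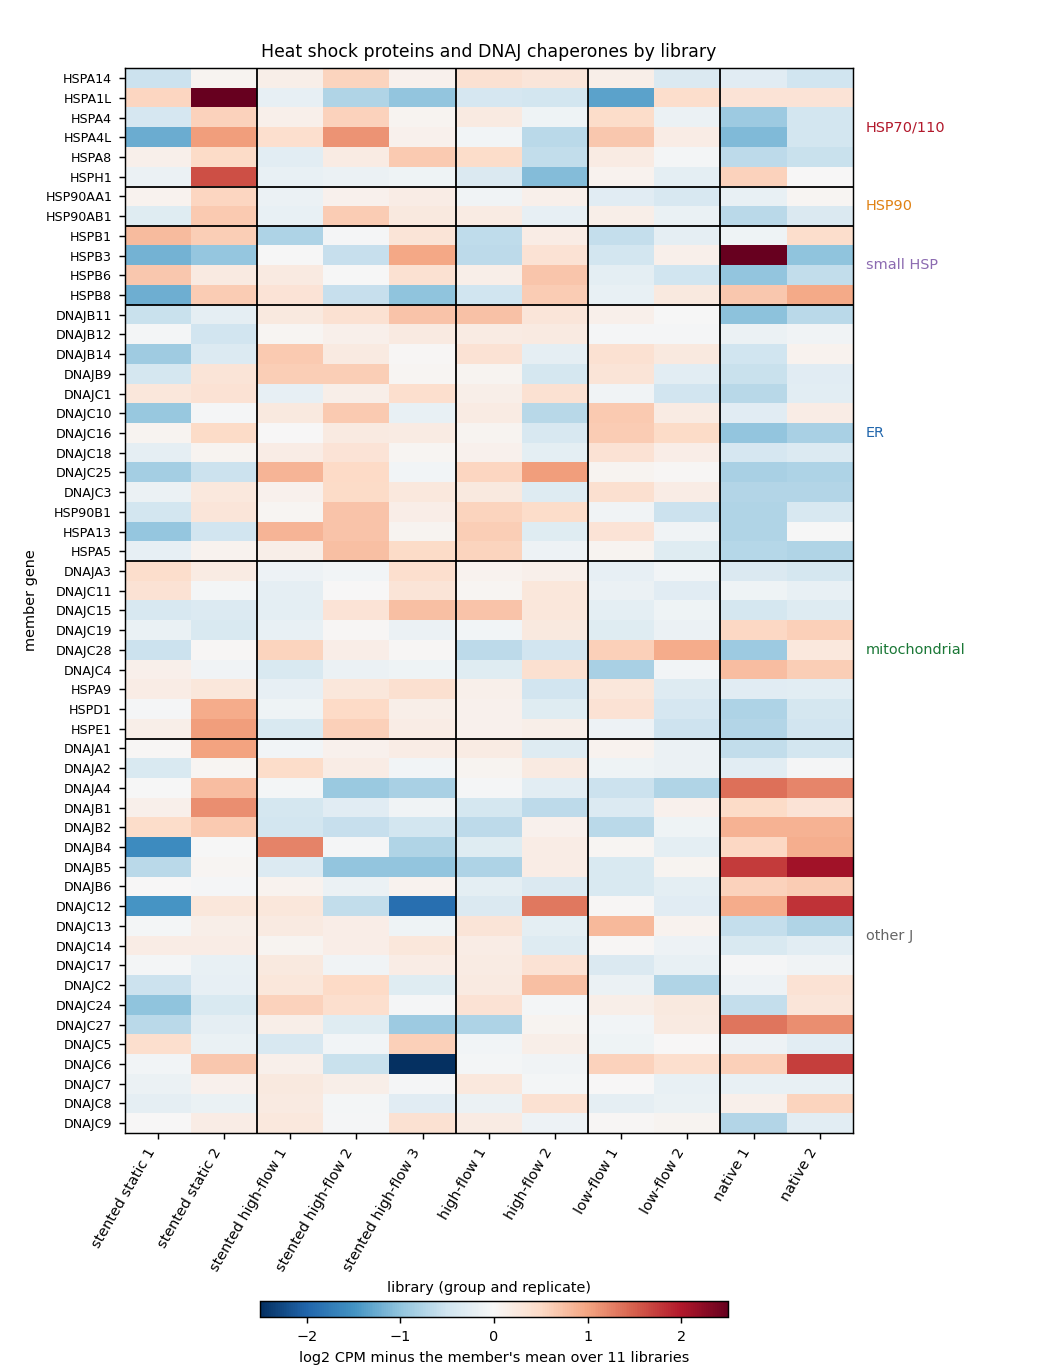
Log2 CPM of the 54 members (rows, in 6 classes) in 11 libraries (columns), each minus the member's mean over the libraries; red is above and blue below that mean. The ER block is mostly blue in both native libraries, DNAJB5 and DNAJC27 are red there, and HSPH1, DNAJB1 and HSPA1L are red in stented static replicate 2.

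The cytosolic HSP70, HSP110 and HSP90 members did not pass the test against native vessels in any of the 4 cultures: 0 of 6 HSP70 and HSP110 members and 0 of 2 HSP90 members were called. At an unadjusted p under 0.05, 2, 4, 1 and 1 of the 6 were found in the same order of groups, stented static first, and none of the 2 HSP90 members, while 29.4%, 37.2%, 30.3% and 28.7% of all genes passed that threshold. HSPA8 (HSC70), the constitutive cytosolic HSP70, had 720 and 920.4 CPM in stented static vessels and 550, 761 and 1033 CPM in stented high-flow vessels. Without a stent it had 907 and 429.5 CPM at high flow and 758 and 636 CPM at low flow, against 419 and 446 CPM in native vessels. The 8 cultured libraries other than high-flow replicate 2 were above native. The differences from native were between 0.63 and 0.92 on the log2 scale in the 4 comparisons, with adjusted p of 0.116 to 0.315.

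HSPA4, an HSP110-type exchange factor, had 94.3 and 187 CPM in stented static vessels and 137, 188 and 131 CPM in stented high-flow vessels. High-flow vessels had 147 and 117 CPM and low-flow vessels 171 and 113 CPM, against 67.2 and 90.9 CPM in native vessels. Every cultured library was above both native ones, with differences of 0.74 to 0.94 and adjusted p of 0.07 to 0.207. Its relative HSPA4L had differences of 0.42 to 1.37 (adjusted p = 0.119 to 0.703). HSPA14, a ribosome-associated HSP70-like protein, had differences of 0.19 to 0.74 (0.131 to 0.743). HSP90AB1, the constitutive HSP90, stood at 578 and 1113 CPM in stented static vessels and 620.5, 1095 and 846 CPM in stented high-flow vessels. It was at 824 and 617 CPM in high-flow and at 787 and 633 CPM in low-flow vessels, against 448 and 553 CPM in native vessels. Here too every cultured library was above native, and the differences of 0.51 to 0.77 were not called (0.137 to 0.418). HSP90AA1, the stress-inducible HSP90, stood at 1629 and 2236 CPM in stented static vessels and 1357 and 1591 CPM in native vessels (0.39 ± 0.29, adjusted p = 0.405), and its differences in the other 3 cultures were -0.28 to 0.12.

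Several heat-inducible members were highest in 1 library, stented static replicate 2. Of the 53 tested members, 8 (15.1%) had their highest level of the 11 libraries there, while 6.46% of all genes did; stented high-flow replicate 2 also held 8, while 6.54% of all genes were highest in it. The 8 in stented static replicate 2, named after their values were seen, were HSPH1, HSPA1L, HSP90AA1, HSP90AB1, HSPD1, HSPE1, DNAJA1 and DNAJB1. HSPH1 (HSP105), an HSP110 exchange factor, had 65.4 and 220 CPM in the stented static pair and 63.3, 64.8 and 67.4 CPM in stented high-flow vessels. The unstented cultures had 56.0 and 34.1 CPM (high-flow) and 76.3 and 60.7 CPM (low-flow), against 107.7 and 72.7 CPM in native vessels. Only that 1 library was above native replicate 1. The difference between stented static and native vessels was 0.66 ± 0.47 (adjusted p = 0.386), and it was -0.46 without stented static replicate 2. DNAJB1 (HSP40), the main heat-inducible J protein, had 104 and 213 CPM in stented static vessels and 69.7, 78.0 and 89.2 CPM in stented high-flow vessels. Without a stent it had 70.17 and 60.4 CPM at high flow and 74.8 and 103 CPM at low flow, against 132 and 120.4 CPM in native vessels. All libraries cultured with flow were below native for DNAJB1, with differences of -0.68 ± 0.30, -0.95 ± 0.34 and -0.51 ± 0.34 in vessels under the higher flow with and without a stent and at low flow (adjusted p = 0.129, 0.0835 and 0.351).

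HSP70.2 is a stress-inducible cytosolic HSP70 of the pig whose symbol lies outside the rule. It had 392 and 854 CPM in stented static vessels and 165, 140 and 162 CPM in stented high-flow vessels. High-flow vessels had 134 and 195 CPM and low-flow vessels 142 and 198 CPM, against 175 and 172 CPM in native vessels. Both stented static libraries were thus above all 9 others, the second of them by far. HSP70.2 rose in stented static vessels by 1.84 ± 0.38 (adjusted p = 0.0114). Leaving out native replicate 1 (0.0863) or 2 (0.0901) or stented static replicate 2 (0.0537) ended that call. HSPA1L, a member that lies beside it on chromosome 7 (23909960 to 23938678) with an overlapping span, had 2.45 and 9.85 CPM in stented static vessels and 2.15 and 2.13 CPM in native vessels. Its differences from native over the 4 cultures were -1.02 to 1.52, none called. The counts of such overlapping genes are uncertain, because reads they share could be assigned to either.

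HSPA12A, a distant relative of HSP70 that is likewise outside the rule, was lower in every culture. It had 17.0 and 15.9 CPM in stented static vessels and 8.11, 14.0 and 11.4 CPM in stented high-flow vessels. High-flow vessels had 8.85 and 7.85 CPM and low-flow vessels 16.9 and 11.3 CPM, against 43.8 and 37.3 CPM in native vessels. All 9 cultured libraries were thus below both native ones. HSPA12A fell with log2 fold changes of -1.30 ± 0.33 for stented static (adjusted p = 0.0289), -1.86 ± 0.30 for stented high-flow (0.00157), -2.28 ± 0.34 for high-flow (0.00235) and -1.52 ± 0.33 for low-flow vessels (0.0151). The calls under the higher flow held without each library in turn, while the stented static and low-flow calls were lost without any 1 of their 4 libraries (0.0904 to 0.153 and 0.0656 to 0.151). Within 1 count table the stented static call was lost as well (0.0583). HYOU1 (GRP170), an HSP70 relative of the ER lumen, rose by 1.32 ± 0.31 in stented static (adjusted p = 0.0213), 1.33 ± 0.29 in stented high-flow (0.00863) and 1.101 ± 0.31 in low-flow vessels (0.042), and its difference in high-flow vessels was 1.004 ± 0.31 (0.0523). The stented static and low-flow calls of HYOU1 were lost without any 1 of their 4 libraries (0.0576 to 0.14 and 0.168 to 0.208), and the stented high-flow call without native replicate 1 (0.0862) or 2 (0.073). Of the 6 tested HSP70-like and other chaperones followed outside the rule, the other 3, HSPA12B, CRYAB and TRAP1, were not called against native.

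DNAJA1, a cytosolic J protein of the HSP70 cycle on chromosome 10 (33432529 to 33445556), passed the test in stented static vessels. It had 176 and 346 CPM there and 164, 186 and 195.7 CPM in stented high-flow vessels. It was at 197 and 137 CPM in high-flow and at 183 and 156 CPM in low-flow vessels, against 112 and 126 CPM in native vessels. All 9 cultured libraries were above native, and stented static replicate 2 was the highest. DNAJA1 rose by 1.14 ± 0.34 in stented static vessels (adjusted p = 0.0496), and without stented static replicate 2 the difference was 0.57 (0.288). The call was lost too without native replicate 1 (0.23) or 2 (0.187), with RLE size factors (0.0519), with a minimum of 10 counts in every library (0.0507), in a fit of these groups alone (0.0979) and within 1 count table (0.084). Under the higher flow with and without a stent and at low flow the difference was 0.61, 0.49 and 0.51 (0.176, 0.355 and 0.344).

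**Figure D3:**
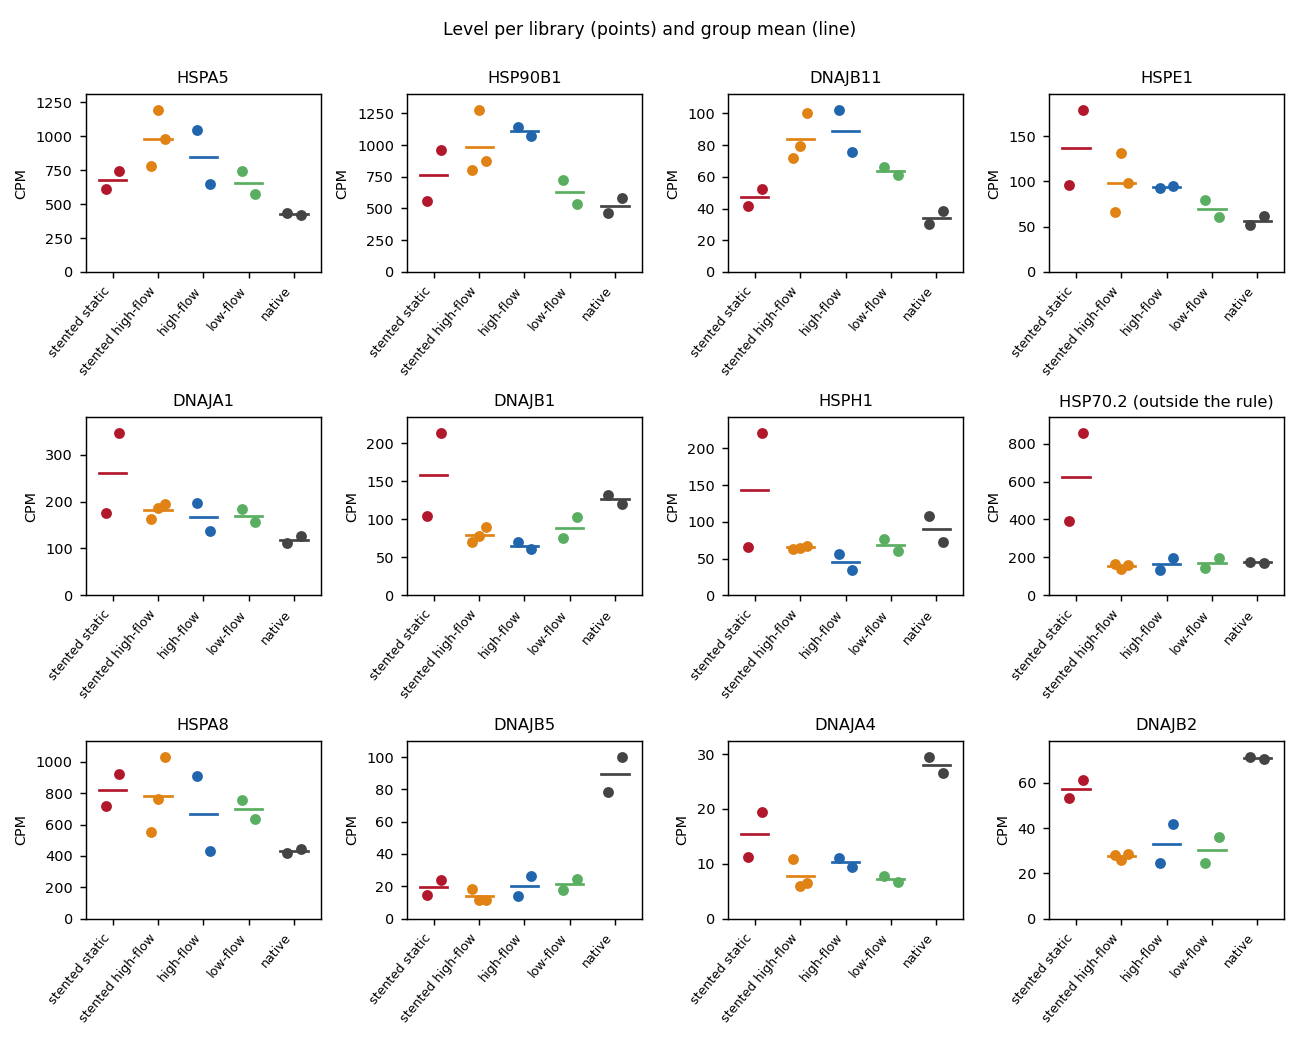
CPM (y axis, linear, from 0) of 11 members and of HSP70.2 in each library (points) with group means (lines), groups from stented static to native. HSPA5 and DNAJB11 are lowest in native vessels, HSPH1 and HSP70.2 peak at 220 and 854 CPM in stented static replicate 2, and DNAJB5, DNAJA4 and DNAJB2 are highest in native vessels.

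Among the 9 mitochondrial members 1 was called, HSPE1 in stented static vessels. HSPE1 (HSP10) is the lid of the HSP60 chaperonin, and its gene lies on chromosome 15 (101374019 to 101376146), 520 bases from HSPD1 (HSP60), with which it is known in mammals to share a promoter region. It had 96.1 and 179 CPM in stented static vessels and 66.2, 131 and 98.7 CPM in stented high-flow vessels. The unstented cultures had 93.2 and 95.4 CPM (high-flow) and 79.5 and 60.6 CPM (low-flow), against 52.0 and 61.7 CPM in native vessels. Only low-flow replicate 2 fell within the native range. HSPE1 rose by 1.27 ± 0.37 in stented static vessels (adjusted p = 0.0476), and without stented static replicate 2 the difference was 0.76 (0.234). Leaving out native replicate 1 or 2 gave 0.229 and 0.171, and the call was lost in a fit of these groups alone (0.0679) and within 1 count table (0.0933). In the other cultures the difference was 0.80, 0.73 and 0.30 (adjusted p = 0.119, 0.214 and 0.641).

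HSPD1 had 198 and 384 CPM in stented static vessels and 186, 285 and 222 CPM in stented high-flow vessels. Without a stent it had 216 and 162 CPM at high flow and 258 and 150.3 CPM at low flow, against 118 and 149 CPM in native vessels. Every cultured library was above both native ones, in low-flow replicate 2 by a small margin. The difference was 1.12 ± 0.39 in stented static vessels (adjusted p = 0.0817) and 0.51 to 0.79 elsewhere, none called. HSPA9 (mortalin), the mitochondrial HSP70 that pulls imported chains, had differences of 0.13 to 0.52 (0.283 to 0.817). DNAJA3 (TID1), its J protein, had 60.4 and 51.5 CPM in stented static vessels against 34.7 and 32.9 CPM in native vessels (0.73 ± 0.26, adjusted p = 0.0945), and 0.27 to 0.51 in the other cultures. DNAJC19, a J protein of the import motor, lay the other way. Its level was 12.4 to 18.9 CPM in the 9 cultured libraries and 23.1 and 24.4 CPM in native ones, with differences of -0.84 to -0.47 (adjusted p = 0.0655 to 0.268). DNAJC4 likewise had 6.21 to 14.6 CPM in cultured and 18.8 and 16.9 CPM in native libraries (-1.10 to -0.60, 0.0655 to 0.294). DNAJC11, DNAJC15 and DNAJC28 had differences of -0.40 to 1.04, none called.

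All called falls were among the other J proteins. Of 20 tested, 2 fell and 1 rose in stented static, 4 fell in stented high-flow, 4 fell in high-flow, and 4 fell and 1 rose in low-flow vessels, where 7.19%, 13.9%, 8.86% and 7.38% of all genes fell. DNAJB5, a cytosolic relative of DNAJB1 on chromosome 1 (235790657 to 235799385, overlapping LOC100525024), had 14.6 and 24.2 CPM in stented static vessels and 18.3, 11.7 and 11.7 CPM in stented high-flow vessels. High-flow vessels had 13.7 and 26.6 CPM and low-flow vessels 17.9 and 24.6 CPM, against 78.5 and 100.3 CPM in native vessels. The cultured libraries were all well below the native pair. DNAJB5 fell in each culture. Its log2 fold change was -2.21 ± 0.41 for stented static (adjusted p = 0.0073), -2.69 ± 0.36 for stented high-flow (0.000692), -2.15 ± 0.41 for high-flow (0.00711) and -2.07 ± 0.41 for low-flow vessels (0.0101). It was the 1 member called in all 4 comparisons, which share the native libraries; 3.82% of all genes were called lower in all 4. The stented high-flow call held without each library in turn. The others were lost without native replicate 2 (0.0591 in stented static, 0.0517 in high-flow, 0.0717 in low-flow), stented static replicate 1 (0.0579), high-flow replicate 1 (0.066), low-flow replicate 1 (0.11) or low-flow replicate 2 (0.0625). In the authors' deposited tables of changed genes DNAJB5 stands at a log2 fold change of -2.70 for stented high-flow and -2.15 for high-flow vessels. It is not in those for stented static and low-flow vessels. In the order of groups used above, these tables list 553, 1117, 1129 and 928 genes. Of these, 0, 1, 1 and 1 are members, none of them an ER member. DESeq2 on the joined counts called 3052, 4529, 3215 and 2827 genes at an adjusted p under 0.05. The deposited tables are thus shorter, and absence from them does not show that a gene was unchanged.

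DNAJA4, a cytosolic J protein on chromosome 7 (47660361 to 47674890, overlapping WDR61), had 10.9, 5.89 and 6.42 CPM in stented high-flow vessels. It was at 11.09 and 9.39 CPM in high-flow and at 7.75 and 6.71 CPM in low-flow vessels, against 29.5 and 26.5 CPM in native vessels. The stented static libraries, at 11.3 and 19.5 CPM, were nearer to native. DNAJA4 fell in 3 cultures, with a log2 fold change of -1.86 ± 0.35 for stented high-flow (adjusted p = 0.00361), -1.45 ± 0.39 for high-flow (0.0294) and -1.95 ± 0.39 for low-flow vessels (0.0108), and it stood at -0.87 ± 0.38 in stented static vessels (0.158). The first call held without each library in turn. The high-flow and low-flow calls were lost without any 1 of their 4 libraries (0.111 to 0.142 and 0.0532 to 0.105). In the authors' deposited table for low-flow vessels DNAJA4 stands at a log2 fold change of -1.95.

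DNAJB2 (HSJ1), a J protein that passes ubiquitinated clients to the proteasome, is on chromosome 15 (121319897 to 121335927), overlapping PTPRN. It had 28.1, 25.9 and 28.4 CPM in stented high-flow vessels. The unstented cultures had 24.5 and 41.7 CPM (high-flow) and 24.5 and 36.0 CPM (low-flow), against 71.6 and 70.8 CPM in native vessels. The stented static libraries had 53.5 and 61.2 CPM. All cultured libraries were below native, the stented static ones least. DNAJB2 fell with log2 fold changes of -1.37 ± 0.27 under the higher flow with a stent (adjusted p = 0.00509), -1.10 ± 0.31 without one (0.0341) and -1.23 ± 0.31 at low flow (0.0254), and stood at -0.31 ± 0.30 in stented static vessels (0.534). Again the stented high-flow call held without each library. The high-flow call was lost without high-flow replicate 1 (0.216), native replicate 1 (0.138) or native replicate 2 (0.147), and the low-flow call without any 1 of its 4 libraries (0.0757 to 0.218).

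DNAJB6, a J protein known for suppressing protein aggregation in muscle and nerve, had 96.4 and 88.3 CPM in high-flow, 86.9 and 95.7 in low-flow and 169 and 176 in native vessels. It fell in both, with log2 fold changes of -0.90 ± 0.23 at the higher flow (adjusted p = 0.0246) and -0.92 ± 0.23 at the low flow (0.0266). In stented static and stented high-flow vessels, at 103 to 121 CPM, the differences were -0.62 ± 0.23 and -0.59 ± 0.21 (0.0999 and 0.0598). Both calls were lost without any 1 of their 4 libraries (0.0986 to 0.154 in high-flow and 0.121 to 0.207 in low-flow) and without the filter on low counts (0.0609 and 0.0628). DNAJC27, a small GTPase with a J domain, had 2.49 and 3.47 CPM in stented static vessels and 4.52, 3.25 and 2.11 CPM in stented high-flow vessels, against 10.4 and 9.20 CPM in native vessels. It fell in both stented cultures, with log2 fold changes of -1.72 ± 0.48 when static (0.0406) and -1.57 ± 0.43 under flow (0.0213). The first call was lost without any 1 of its 4 libraries (0.07 to 0.192), in a fit of these groups alone (0.0535) and within 1 count table (0.0684), and the second without native replicate 1 (0.113), native replicate 2 (0.0826) or stented high-flow replicates 2 (0.0635) or 3 (0.055). In high-flow and low-flow vessels the differences were -1.56 ± 0.48 and -1.19 ± 0.47 (0.0512 and 0.125). The falls of these J proteins stood beside the lower smooth muscle markers given above, and the part of those cells in them was not tested.

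DNAJC13 (RME-8), a J protein of endosomes, was the 1 member of this class called higher outside stented static vessels. It had 98.8 and 60.2 CPM in low-flow vessels and 37.3 and 33.4 CPM in native vessels, a rise of 1.17 ± 0.31 (adjusted p = 0.0322) that was lost without any 1 of its 4 libraries (0.0539 to 0.276). Its difference was 0.73 to 0.78 in the other 3 cultures (0.0691 to 0.139). DNAJB4, a cytosolic J protein abundant in muscle, had 19.1 and 56.0 CPM in stented static vessels and 134, 55.2 and 33.6 CPM in stented high-flow vessels. Without a stent it had 46.0 and 64.1 CPM at high flow and 58.7 and 47.6 CPM at low flow, against 81.1 and 106 CPM in native vessels. Stented high-flow replicate 1 alone was above native, and the differences of DNAJB4, -1.32 to -0.33, were not called (0.177 to 0.696). Of the remaining J proteins, DNAJC12 and DNAJC6 had the widest differences from native, -1.98 ± 0.73 and -2.06 ± 0.78 in stented high-flow vessels (0.0719 and 0.0775). DNAJC6 (auxilin), which uncoats clathrin vesicles, was at 0.141 CPM in stented high-flow replicate 3, at 2.58 and 1.57 CPM in the other two stented high-flow libraries and at 3.65 and 8.11 CPM in native ones. DNAJA2, DNAJC2, DNAJC5, DNAJC7, DNAJC8, DNAJC9, DNAJC14, DNAJC17 and DNAJC24 had differences of -0.59 to 0.70 over the 4 comparisons, none called.

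No small heat shock protein was called against native. Of all genes 12.7% were called in stented static, 24.3% in stented high-flow, 14.8% in high-flow and 12.4% in low-flow vessels. At an unadjusted p under 0.05, 1 of the 3 tested was found in each culture except low-flow, each time HSPB6, against the shares of all genes at that threshold given above. HSPB6 (HSP20), a protein known for relaxing smooth muscle when phosphorylated, had 4.78 and 3.47 CPM in stented static vessels and 3.44, 2.92 and 3.84 CPM in stented high-flow vessels. High-flow vessels had 3.26 and 4.83 CPM and low-flow vessels 2.48 and 2.06 CPM, against 1.43 and 1.90 CPM in native vessels. Every cultured library was above native, with differences of 1.31 ± 0.45, 1.03 ± 0.42, 1.27 ± 0.45 and 0.44 ± 0.45 (adjusted p = 0.0806, 0.101, 0.082 and 0.561). HSPB1 (HSP27), an actin-binding chaperone, had 555 and 494 CPM in stented static vessels and 188, 313.2 and 398 CPM in stented high-flow vessels. It was at 207 and 367 CPM in high-flow and at 212 and 274 CPM in low-flow vessels, against 299 and 433 CPM in native vessels. The stented static pair was above native, at 0.52 ± 0.40 (0.422), and the low-flow pair below, at -0.59 ± 0.40 (0.358). HSPB8 (HSP22), which works with BAG3 in removing damaged muscle proteins, had 31.7 to 115 CPM in the 9 cultured libraries and 118 and 143 CPM in native ones, with differences of -1.11 to -0.64 (0.154 to 0.514). HSPB3, a small heat shock protein of striated muscle, was too low to test, with 1 to 11 counts in each cultured library, against 49 and 1 in native replicates 1 and 2. The 7 cardiomyocyte markers MYH6, TNNT2, ACTN2, MYBPC3, NPPB, ACTC1 and RYR2 summed to 9.32 to 72.4 CPM in cultured libraries, against 1433 and 110 CPM in native replicates 1 and 2. TNNT2, NPPB and ACTC1 were each at 0 in at least 1 library, and the part of cardiac muscle in the HSPB3 counts was not tested.

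The effect of flow within stented vessels was addressed by setting stented high-flow against stented static cultures. No member was called, while 2.85% of all genes were. At an unadjusted p under 0.05 there were 11 of 53 members and 19.1% of all genes. DESeq2 called 5 members, DNAJC25 and HSPA13 higher and DNAJB1, DNAJB2 and HSPA1L lower. It called 5.22% of all 25880 gene identifiers, tested or not. The ER members mostly lay above 0, 11 of 13 of them, with a median of 0.45. HSPA13 had 75.0, 68.6 and 43.8 CPM in stented high-flow vessels, against 21.3 and 30.1 CPM in stented static vessels (1.28 ± 0.38, adjusted p = 0.0975). DNAJC25, whose values are given above, differed by 1.16 ± 0.31 (0.0762) and DNAJB11 by 0.83 ± 0.26 (0.112), and for these 3 every stented high-flow library was above both stented static ones, as held for 6 of the 13 ER members and 14.5% of all genes. HSPA5 differed by 0.53 ± 0.30 (0.376) and HSP90B1 by 0.37 ± 0.32 (0.593). Without stented high-flow replicate 3, DNAJC25 was called (1.37, adjusted p = 0.0401).

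On the other side of 0 lay HSPA1L (-2.53 ± 0.68, adjusted p = 0.0721), HSPH1 (-1.13 ± 0.42, 0.176), DNAJB2 (-1.06 ± 0.27, 0.0645), DNAJB1 (-1.003 ± 0.30, 0.1), DNAJA4 (-0.99 ± 0.35, 0.149) and HSPB1 (-0.81 ± 0.36, 0.246). The libraries of the groups did not overlap for HSPA1L, DNAJB1, DNAJB2, DNAJA4 and HSPB1, which with DNAJC4 are the 6 of 53 members wholly below the static pair (15.7% of all genes), whereas HSPH1 rested on stented static replicate 2. Without that library the difference of HSPH1 was 0.00, and without stented static replicate 1 it was -1.76 and called (adjusted p = 0.0472). HSP70.2, outside the rule, was lower in stented high-flow than in stented static vessels by -2.00 ± 0.33 (adjusted p = 0.0135). That call was lost in a fit of these 2 groups alone (0.101) and without stented high-flow replicate 2 (0.0536). Both stented static libraries carry the 3d ending, which no stented high-flow library carries, so flow and whatever that ending marks cannot be told apart. Adipocyte markers (6) summed to 29.3 to 93.9 CPM in stented high-flow and to 2387 and 239 CPM in stented static libraries, with LEP at 0 in 3 of these 5 libraries, and macrophage markers (5), none at 0, to 225 to 470 and to 1495 and 644 CPM. Of these, 5 adipocyte and 1 macrophage markers were called lower, and the part of these cells was not tested.

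**Figure D4:**
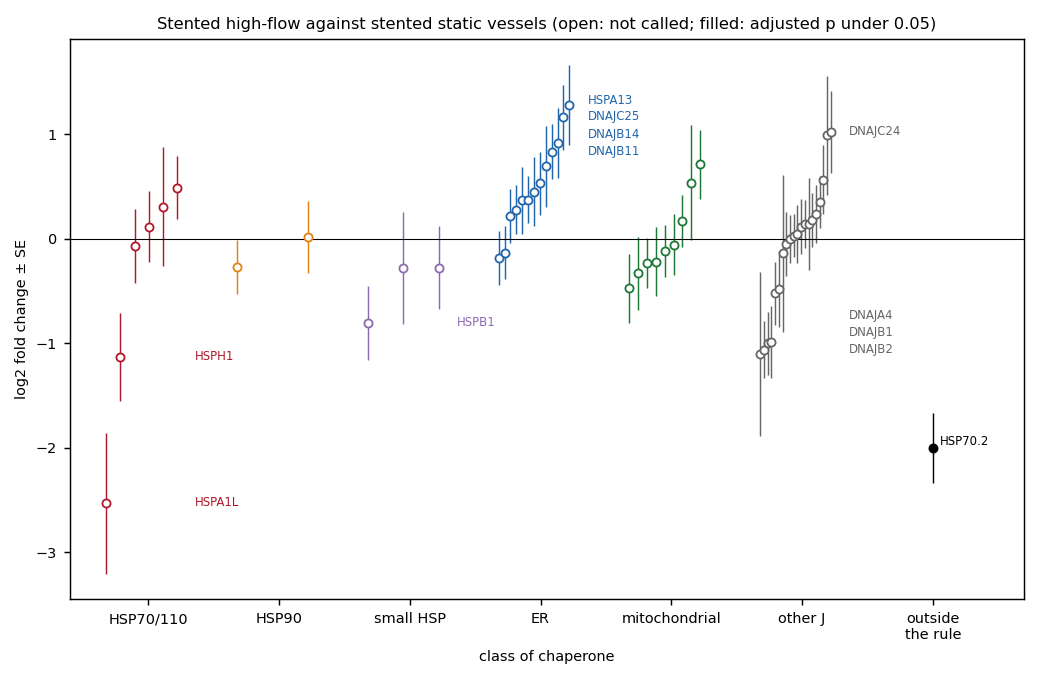
Log2 fold change ± SE (y axis) of each tested member in stented high-flow against stented static vessels, by class (x axis), with HSP70.2 at the right; names mark members with an unadjusted p under 0.05. No member is filled, HSPA13 and DNAJC25 are the highest of the ER members, at 1.28 and 1.16, and HSPA1L is the lowest of all at -2.53.

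The effect of the stent was addressed under the higher flow, where stented high-flow vessels were set against high-flow vessels. No member was called, and 0 of 53 had an unadjusted p under 0.05 with edgeR; DESeq2 also called 0. Of all genes edgeR called 0%, and 3.04% had an unadjusted p under 0.05, while DESeq2 called 0.027% of all gene identifiers. The differences had a median of 0.05 and ran from -1.24 (DNAJC12) to 0.96 (HSPA4L). HSPA5 had 778, 1193 and 978 CPM in stented high-flow vessels and 1047 and 649 CPM in high-flow vessels, so the libraries overlapped (0.21 ± 0.30). The same held for DNAJB11 (-0.08 ± 0.25), HSP90B1 (-0.17 ± 0.32), DNAJA1 (0.12 ± 0.31), HSPD1 (0.29 ± 0.35) and DNAJB5 (-0.54 ± 0.36). With 3 against 2 libraries these SE leave room for differences in either direction.

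The effect of the amount of flow without a stent was addressed by low-flow against high-flow vessels. No member was called with edgeR or DESeq2, while edgeR called 0.104% of all genes. At an unadjusted p under 0.05 there were 5 of 53 members and 8.05% of all genes. Of these 5, HSP90B1 had 728 and 532 CPM in low-flow and 1145 and 1069 CPM in high-flow vessels (-0.81 ± 0.35, adjusted p = 0.615), and DNAJC25 had 22.2 and 21.4 against 30.4 and 43.4 CPM (-0.76 ± 0.33, 0.615). DNAJC2, a ribosome-bound J protein, had 39.5 and 26.0 CPM in low-flow and 51.0 and 73.7 CPM in high-flow vessels (-0.93 ± 0.35, 0.582). DNAJC16 lay the other way, with 34.0 and 30.7 against 23.1 and 16.7 CPM (0.70 ± 0.28, 0.584), as did DNAJC28, a mitochondrial J protein, with 1.84 and 2.34 against 0.712 and 0.821 CPM (1.44 ± 0.60, 0.584). The groups did not overlap for any of these 5. Over all tested members, low-flow lay wholly above for 7 and wholly below for 18 of 53, as 22.9% and 22.3% of all genes did.

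Genes that work with the chaperones were followed as lists outside the rule. Of 5 tested heat shock factors and regulators, HSF1 among them, none was called in any comparison. Of 11 HSP70 cochaperones, BAG3, the partner of HSPB8, fell in all 4 cultures: it had 171 and 223 CPM in stented static vessels and 166, 161 and 197 CPM in stented high-flow vessels. The unstented cultures had 164 and 161 CPM (high-flow) and 144 and 187 CPM (low-flow), against 419 and 370.4 CPM in native vessels. Its log2 differences were -1.002 ± 0.26, -1.18 ± 0.24, -1.28 ± 0.27 and -1.25 ± 0.27 (adjusted p = 0.0327, 0.0053, 0.0102 and 0.0132). The stented high-flow call was lost without native replicate 1 (0.0582), and the other 3 without any 1 of their 4 libraries (0.0511 to 0.2). The stented static call was also lost in a fit of these groups alone (0.0867) and within 1 count table (0.0747). GRPEL2, a mitochondrial exchange factor of the same list, fell in stented high-flow vessels (-1.97 ± 0.58, adjusted p = 0.0298). That fall did not pass on leaving out native replicate 1 (0.217) or stented high-flow replicates 2 (0.0976) or 3 (0.0739). Of 14 HSP90 cochaperones, 3 rose and 1 fell in each stented culture, and 1 rose and 1 fell in each culture without a stent. In the same order of groups 5.54%, 10.4%, 5.94% and 5.03% of all genes rose and 7.19%, 13.9%, 8.86% and 7.38% fell. The rises of STIP1 and PPID in the stented cultures and the falls of UNC45A in all 4 were each lost without at least 1 library. FKBP5, an HSP90 cochaperone of steroid receptors that glucocorticoids induce, had 439 and 589 CPM in stented static vessels and 464, 401 and 266 CPM in stented high-flow vessels. Without a stent it had 364 and 372 CPM at high flow and 479 and 508 CPM at low flow, against 99.9 and 112 CPM in native vessels. It rose by 2.28 ± 0.32, 1.83 ± 0.30, 1.80 ± 0.31 and 2.22 ± 0.32 (adjusted p = 0.00183, 0.00173, 0.0046 and 0.00212), and only the high-flow call was lost, without native replicate 1 (0.0513).

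The ER folding list was the longest of those followed, and its genes were called mostly upward. Of its 20 tested genes, none of them a member, 4 rose and 1 fell in stented static, 9 rose and 1 fell in stented high-flow, 5 rose and 1 fell in high-flow and 4 rose and 1 fell in low-flow vessels, while 5.54%, 10.4%, 5.94% and 5.03% of all genes rose. The medians were 0.48, 0.80, 0.79 and 0.76. Of the 9 rises in stented high-flow and the 5 in high-flow vessels, only those of MANF held without each library in turn. None of the 4 rises in stented static or the 4 in low-flow vessels did. Without stented high-flow replicate 2, PDIA4 (adjusted p = 0.0752) and PDIA6 (0.0686) were no longer called in that group. MANF, a secreted ER stress protein that binds HSPA5, had 106 and 99.6 CPM in stented static vessels and 107, 148 and 163 CPM in stented high-flow vessels. High-flow vessels had 164 and 159 CPM and low-flow vessels 94.7 and 82.4 CPM, against 42.9 and 48.1 CPM in native vessels. It rose by 1.18 ± 0.27, 1.61 ± 0.25, 1.83 ± 0.27 and 0.96 ± 0.27 (adjusted p = 0.0176, 0.00146, 0.00221 and 0.0381). The stented high-flow and high-flow calls held without each library in turn, while the low-flow call was lost without any 1 of its 4 (0.132 to 0.233) and without the filter on low counts (0.0545), and the stented static call without native replicate 1 (0.141) or 2 (0.103) or stented static replicate 1 (0.0781). The gene of the list that fell was PPP1R15A (GADD34), which restores translation after stress. It had 116 and 119 CPM in stented static vessels and 74.8, 64.6 and 72.8 CPM in stented high-flow vessels. It was at 78.0 and 110 CPM in high-flow and at 46.5 and 58.1 CPM in low-flow vessels, against 368 and 448 CPM in native vessels. Each call held without each library in turn. Its log2 fold changes were -1.80 ± 0.27, -2.53 ± 0.24, -2.12 ± 0.27 and -2.96 ± 0.28 (adjusted p = 0.00261, 0.000139, 0.00116 and 0.000306). Of 7 tested subunits of the cytosolic TRiC chaperonin 1, CCT3, rose in stented high-flow vessels. Of 9 mitochondrial quality control genes 1, HTRA2, rose there as well, where 10.4% of all genes rose. Of 4 prefoldin subunits 1, PFDN1, fell in low-flow vessels, where 7.38% of all genes fell. None of these calls held without each library in turn.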

How the data were processed

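Gene counts per library were deposited by the authors in 2 tables, which were joined by gene identifier; the native columns of both are identical. Per the submitters' processing notes, the authors used Trimmomatic, FastQC, DESeq2 and the Sscrofa11.1 genome; the aligner, the annotation release and whether counting used strand are not stated in these sources. The authors' deposited lists of changed genes hold log2 fold changes against native vessels, and were read only for the values credited to them. From the counts, CPM with TMM scaling were computed and all 5 groups fitted jointly in edgeR 4.0.16 (R 4.3.3), with filterByExpr, the quasi-likelihood F-test and Benjamini-Hochberg adjustment over 15348 genes. No replicate block was used. A fold change is the first group minus the second on the log2 scale, and its SE is the size of the fold change divided by the square root of F. Scripts were tested on simulated counts.

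Totals of 13496636 to 26785124 counts limit precision less than the groups of 2 or 3 libraries. Counts carry no gene length, so levels are not compared between genes. Replicates correlated at r = 0.932 to 0.979 across genes and differed by more than sampling noise, with chi-square per degree of freedom of 53.9 to 180, so none was merged. Members, gene lists and marker lists were chosen with earlier results of these data known. Named members are 20 matched of 22 followed genes, the called members with the largest changes in each comparison, and members called alike in all 4 cultures; other members were named to account for the classes. Symbols were taken from a separate list of gene names, matched to the gene identifiers of the counts. Coordinates come from RefSeq's Sscrofa11.1 annotation by symbol, with HSP90AA1 and DNAJC25 given none. Overlaps of spans with another gene are marked where coordinates are given, and not for other members. Among those others HSP90AB1 overlaps SLC35B2, HSP90B1 overlaps C5H12orf73, HSPA13 overlaps LOC100152428, DNAJC4 overlaps TRPT1 and DNAJC12 overlaps LOC100152383. Alternatives were RLE size factors, DESeq2 1.42.0, other count filters, a replicate block, a fit of just the pair of groups, a fit within 1 count table, and leaving out each library.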

Additional observations from a re-analysis of the deposited data

Results flagged for a closer look

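HSP70.2 was called as different between the stented groups with and without flow. It stood at 165, 140 and 162 CPM in stented high-flow libraries and at 392 and 854 CPM in stented static libraries, with native libraries at 175 and 172 CPM. The test of the difference between both cultures gave -2.00 on the log2 scale (edgeR quasi-likelihood, adjusted p = 0.0135).

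ERN1, the ER stress sensor IRE1, was likewise found by that test, at -1.80 (adjusted p = 0.0341). It had 14.8, 15.9 and 14.3 CPM in stented high-flow and 77.7 and 26.7 CPM in stented static libraries, against 17.8 and 13.2 CPM in native ones. Without stented static replicate 1 the difference was -0.84 (0.336), and leaving out stented high-flow replicate 1, 2 or 3 gave adjusted p of 0.0628, 0.0996 and 0.0663. The call was also lost in a fit of these groups alone (0.161) and within 1 count table (0.0883).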

How the results depend on the processing

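Of 1950 values of single genes recomputed under the alternatives, 1631 kept direction and side of the threshold, 270 lost their call and 36 gained one. Another 13 changed sign, none of them a called value. The 1950 include values of genes not called in the main fit, which had no call to lose. The 270 are therefore a larger share of the called values. Members called against native numbered 5 in stented static, 9 in stented high-flow, 6 in high-flow and 7 in low-flow vessels. DESeq2 gave 10, 16 and 11 in the first 3, beside 11.8%, 17.5% and 12.4% of all 25880 gene identifiers, tested or not. In stented high-flow against stented static vessels DESeq2 gave 5, beside 5.22% of these identifiers. There edgeR gave 0, beside 2.85% of genes tested, and omitting the low-count filter gave 3, beside 4.78%. Fitting only the groups compared gave 1 in stented static and 20 in low-flow vessels, beside 11.8% and 33.5% of all genes. Only 1 count table gave 2 in stented static and 13 in high-flow vessels, beside 8.19% and 26% of all genes. That choice cannot be made for stented high-flow against high-flow vessels, which stand in different tables. Leaving out 1 library gave 1 to 3 in stented static, 3 to 14 in stented high-flow, 1 to 4 in high-flow and 0 to 1 in low-flow vessels, and 0 to 1 between stented cultures. Replicate numbers did not pair the libraries (correlations of deviations -0.35 to 0.183). A replicate block gave 3 members for stented static and 5 for stented high-flow vessels, beside 11.9% and 16.2% of all genes. It turned DNAJB4 in stented high-flow vessels to 0.0619. The block ended the stented high-flow calls of HSPA5 (adjusted p = 0.0509), DNAJC3 (0.0538), DNAJC16 (0.0539) and DNAJC27 (0.088), the stented static calls of DNAJA1 (0.0767) and HSPE1 (0.0573), the low-flow calls of DNAJC3 (0.0657), DNAJB6 (0.0521), HYOU1 (0.0547) and MANF (0.0565), the stented high-flow call of GRPEL2 (0.101), and the difference of ERN1 between the stented cultures (0.114). The causes were not tested.

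The sign of uncalled values depended on 1 library, with left-out ranges for stented static vessels of -0.28 to 0.77 (DNAJB1), -0.0263 to 0.76 (DNAJB9) and -0.46 to 1.31 (HSPH1). In stented high-flow vessels DNAJB4 ran from -1.07 to 0.0165 and HSPB1 from -0.55 to 0.0542. In high-flow vessels the ranges were -0.0224 to 0.54 (DNAJB9), -0.0195 to 0.26 (HSP90AA1), -0.00419 to 1.11 (HSPA8), -0.19 to 0.44 (HSPA9) and -0.78 to 0.00608 (HSPB1). HSPA9 in low-flow vessels ran from -0.0436 to 0.57, and HSPH1 in stented high-flow against stented static vessels from -1.76 to 0.00104.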
